A study of Rattus norvegicus with 2 samples.

Results

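Host genes of microtubules, axonal transport and cilia gave 189 of the 11599 circular RNAs (circRNAs) in a rat table labelled as spinal cord, from 63 genes. Over the table, circRNAs that carry a single host name came from 3865 host genes. A circRNA is a closed RNA loop made by back-splicing, in which the end of an exon is spliced to the start of the same or an earlier exon, and reads across that junction are what is counted. Members were taken by gene name alone: kinesins (Kif), kinesin light chains (Klc), dyneins (Dync, Dnah), centrosomal proteins (Cep), intraflagellar transport proteins (Ift, Cluap1), Ahi1, plus-end binding proteins (Clip, Clasp), katanins (Katn), microtubule-associated proteins (Map1a, Map1b, Map2, Map4, Map7, Mtus), tubulin ligases (Ttll, except Ttll5) and neurofilaments (Nefl, Nefm, Nefh). Map1a and Mtus1 had no circRNA in the table. The names also let in Cept1, which encodes a phospholipid synthesis enzyme and has nothing to do with centrosomes, so it is kept apart below.

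The study modelled bone cancer pain. In the BCP group, Walker256 cells, a rat mammary carcinoma line grown as ascites in SD rats, were put into the tibial marrow cavity. The sham group had the same surgery with cells that had been boiled for 20 min. Each group is described as 3 rats, killed 21 days after surgery, and gave 1 library, so no difference below has a replicate check. No source used here says whether the RNA of the rats was pooled. The tissue label of both samples gives spinal cord, but their source label gives the injected Walker256 line. The tissue label is followed here, and every value below rests on it. Ratios compare these 2 libraries and not the conditions, and in bulk tissue fewer cells of a type and less circRNA per cell cannot be told apart.

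Microtubules are polar tracks of tubulin. Kinesins carry vesicles, mitochondria and RNA mostly towards the plus end, which in axons points away from the cell body, and cytoplasmic dynein carries cargo back. Spinal motor neurons depend on this traffic because their axons are long, and their axons are filled with neurofilaments. Primary cilia, present on many neurons and glia, are built from the centriole by intraflagellar transport, in which trains of Ift proteins are moved out by kinesin-2 and returned by dynein-2. A circRNA count says how often a back-splice was read, not how much mRNA or protein the gene makes.

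The sham library held 113033 back-splice reads and the BCP library 78836, so 1 read is worth 8.85 CPM (counts scaled to the library total) in sham and 12.7 in BCP. Every count in the table is 0 or at least 2, and a circRNA listed at 0 is therefore not shown to be absent, least of all in the shallower BCP library. No fold is given against a 0. CircRNAs, and sums over the circRNAs of a host, were tested if sham and BCP together gave 10 reads or more. They met the size rule if the levels differed 2-fold or more and the 95% exact binomial (Clopper-Pearson) interval of the ratio left out 1. All intervals here are of that kind. They cover counting error only, since reads that carry no molecular identifier may be copies of the same molecule. "Higher" and "lower" with the size rule always mean BCP relative to sham.

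The members took 1.498% of sham reads (1693 reads, interval 1.43 to 1.57) and 1.21% of BCP reads (952 reads, 1.13 to 1.29). Their summed CPM was therefore 0.806 of the sham level in BCP (0.744 to 0.873). Of the 189 circRNAs, 74 were listed in sham alone, 43 in BCP alone and 72 in both. These shares, 39.2%, 22.8% and 38.1%, lay beside 36.4%, 22.4% and 41.2% over the whole table. The 72 circRNAs with reads in both libraries had 1228 and 792 reads in sham and BCP, a ratio of 0.925 (0.845 to 1.01). CircRNAs listed in a single library thus held the larger part of the gap between the sums. The part of the BCP library's lower depth in this was not tested.

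Only 52 members had enough reads to be tested, and they held 78.3% of the members' reads. By the size rule 3 were higher and 9 were lower. Both counts depend on the minimum: with at least 5 reads, 12 of 102 were higher and 13 lower (11.8% and 12.7%, beside 11.0% and 8.93% of 6246 in the table). Of 3502 circRNAs tested in the whole table, 7.82% were higher, 7.34% lower and 15.2% either, against 5.77%, 17.3% and 23.1% of the members. Since circRNAs of 1 host are not independent of each other, these shares are given without an interval. Of the 9 lower circRNAs, 7 were listed at 0 in BCP, and of the 3 higher ones 1 was listed at 0 in sham. Over the whole table this held for 174 of 257 lower and 84 of 274 higher circRNAs, so it is not particular to the members. Among the 44 tested members with reads in both libraries, 2 were higher and 2 lower. Each share was then 4.55%, beside 5.86% higher, 2.56% lower and 8.42% either of all 3244 such circRNAs. The median log2 ratio of the tested members, with 0.5 reads added, was -0.29, against 0.02 over the table, and -0.08 against 0.05 where both libraries had reads. With a 0 taken as 1 read and nothing added, the medians over all tested circRNAs were -0.34 and 0.01. The remaining 137 members had 2 to 9 reads each and summed to 338 and 235 reads, a ratio of 0.997 (0.840 to 1.18).

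**Figure D1:**
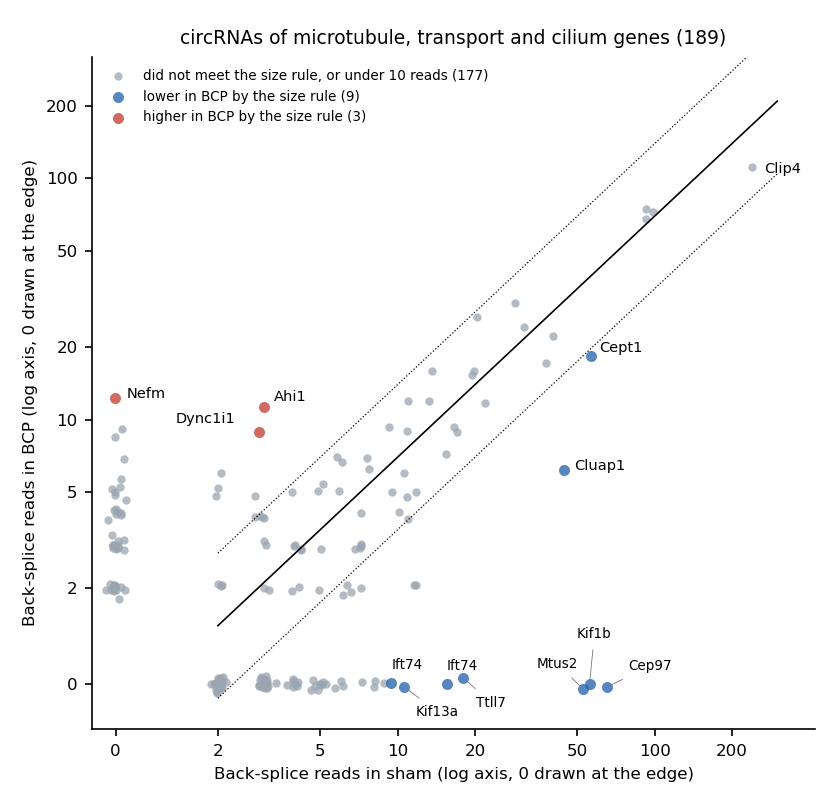
Back-splice reads of each of the 189 circRNAs in sham (x axis) and BCP (y axis), both on log axes with 0 drawn at the edge and a small random shift so that equal counts can be seen. The solid line marks equal CPM and the dotted lines a 2-fold ratio; 7 of the 9 circRNAs lower in BCP lie on the edge where BCP has 0 reads, while the 4 circRNAs with most reads lie between the dotted lines.

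None of the 4 most abundant members met the size rule. Clip4, a member of the family that binds growing microtubule ends, hosted the leading one (chromosome 6, 23266868 to 23279721, build rn6 as for all circRNA positions), with 238 reads in sham and 114 in BCP. Its 1.46-fold lower level in BCP (1.16 to 1.84) had an interval that left out 1 but did not reach 2-fold. Next came a circRNA of the centrosomal gene Cep112 (chromosome 10, 96672236 to 96679543) with 101 and 74 reads, a ratio of 1.05 (0.768 to 1.43). Map2, which encodes the main microtubule-associated protein of dendrites, followed with 93 and 68 reads (chromosome 9, 73378062 to 73399557), a ratio of 1.05 (0.755 to 1.45). A circRNA of only 276 bp from Kif5a, the neuronal heavy chain of kinesin-1 (chromosome 7, 70526572 to 70526847), had 90 and 70 reads, a ratio of 1.12 (0.804 to 1.54). These 4 rank 31, 117, 133 and 134 among all circRNAs of the table by reads. The 10 most abundant members held 46.0% of all member reads.

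Kinesin motors and the kinesin-2 adaptor gene Kifap3 hosted 48 circRNAs from 16 genes, with 363 reads in sham and 205 in BCP. Their summed ratio was 0.810 (0.679 to 0.964), and 0.934 (0.760 to 1.15) over the 19 with reads in both libraries. Of 12 tested, 0 were higher, 2 were lower and 10 met neither side, beside 7.82% higher and 7.34% lower over the table. The lower ones came from kinesin-3 motors. Kif1b, which carries mitochondria and synaptic vesicle precursors, had a circRNA read 57 times in sham and listed at 0 in BCP (chromosome 5, 166066342 to 166067876). Kif13a, a vesicle motor, had another with 11 and 0 reads (chromosome 17, 18238234 to 18262053).

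The Kif1b circRNA was not typical of its gene. A longer one that ends at the same position (166060053 to 166067876) had 8 and 7 reads, and the other 6 circRNAs of Kif1b together had 14 reads in each library (ratio 1.43, 0.634 to 3.24). The lower sum of Kif1b thus came from a single back-splice, while the interval for the rest spans 1. Here and below, the rest of a host without its called circRNA is a set chosen by its values. Leaving out a call moves the rest the other way.

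Summed over all circRNAs of a gene, 42 member hosts were tested, of which 3 were higher and 9 lower (7.14% and 21.4%). Of 2144 tested host genes of the table, summed over circRNAs with a single host name, 8.82% were higher, 8.49% lower and 17.3% either. Among kinesins, Kif1b (71 and 14 reads, 3.54-fold lower, 1.98 to 6.80), Kif13a (22 and 6, 2.56-fold lower, 1.01 to 7.71), Kif6 (14 and 2, 4.88-fold lower, 1.12 to 44.3) and Kifap3 (33 and 11, 2.09-fold lower, 1.03 to 4.59) were lower. From circRNAs with reads in both libraries, Kif1b (8 and 7), Kif13a (8 and 6) and Kifap3 (28 and 11) did not meet the rule, and Kif6 had no such circRNA. Kif13b, a close relative of Kif13a, was the kinesin that was higher, with 2 and 11 reads (7.89-fold, 1.72 to 73.2). Reads in both libraries were found for only 1 of its circRNAs (2 and 5), below the minimum for a test. Across the 16 genes, summed CPM was lower in BCP for 8 and higher for 8.

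The kinesin-1 genes, which power fast axonal transport, met neither side of the rule. Kif5a had 94 and 72 reads in all, a ratio of 1.10 (0.796 to 1.51). Kif5c had 18 and 24 reads over 7 circRNAs, a ratio of 1.91 (0.995 to 3.74). Of these, 1 was listed in sham alone and 4 in BCP alone, and the rest, with 14 and 7 reads, turned the direction (ratio 0.717, 0.245 to 1.90). For Kif5b, 5 and 4 reads did not reach the minimum. The light chain gene Klc1, whose product links kinesin-1 to cargo, had a leading circRNA with 32 and 23 reads (chromosome 6, 136348078 to 136358127; ratio 1.03, 0.576 to 1.82).

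Cytoplasmic dynein, the motor of retrograde transport, was represented by its intermediate chain gene Dync1i1 and light intermediate chain gene Dync1li1. Dync1i1 hosted 14 circRNAs, the most of any member, with 61 and 47 reads in all (ratio 1.10, 0.739 to 1.64). Its leading circRNA had 15 and 17 reads (chromosome 4, 30999733 to 31017624; ratio 1.62, 0.763 to 3.49). One of the 14 was higher in BCP, with 3 and 9 reads (31099306 to 31103718; 4.30-fold, 1.07 to 24.7), and this call was lost with either other scaling of the libraries. The 3 longer circRNAs of Dync1i1 that end at the same position had 5, 3 and 3 reads in sham and 0 in BCP. Dync1li1 had a single circRNA of 11 and 12 reads (chromosome 8, 122760377 to 122761385; ratio 1.56, 0.632 to 3.91). The 2 genes together had a ratio of 1.17 (0.818 to 1.68), and of 1.49 (1.005 to 2.20) over the 8 circRNAs with reads in both libraries (54 and 56).

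**Figure D2:**
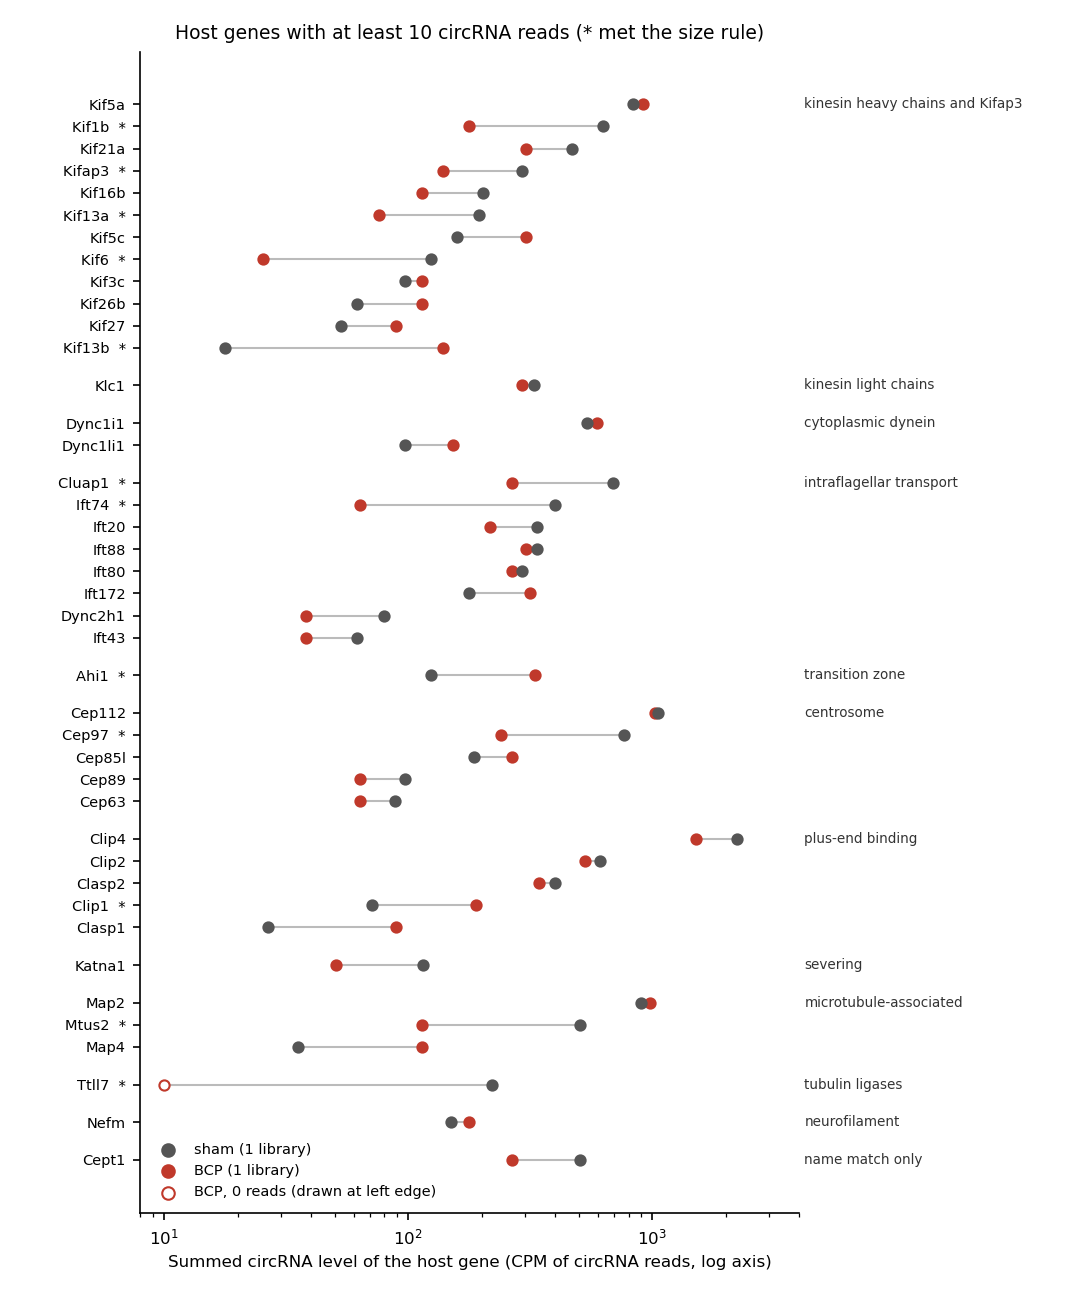
Summed circRNA level of 41 of the 42 member host genes with at least 10 reads, in CPM on a log axis, with sham in grey and BCP in red (1 library each, no error bars) and an asterisk where the sum met the size rule. Within intraflagellar transport 7 of 8 tested genes lie lower in BCP, while the kinesins split 6 and 6.

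Intraflagellar transport genes, counting the dynein-2 heavy chain gene Dync2h1, hosted 28 circRNAs from 9 genes. Sham gave them 271 reads and BCP 122, for a summed ratio of 0.645 (0.517 to 0.802), and 0.793 (0.626 to 1.000) over the 15 with reads in both libraries. Of 12 tested, 0 were higher, 3 were lower and 9 met neither side, beside 7.82% higher and 7.34% lower over the table. The median log2 ratio of the 12 was -0.58, and -0.45 for the 10 with reads in both libraries, beside 0.02 and 0.05 over the table. Summed CPM was lower in BCP for 7 of the 9 genes, beside 36 of all 63 member hosts.

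Cluap1 and Ift74, which encode subunits of the IFT-B complex that forms anterograde trains, gave all 3 lower circRNAs. For Cluap1 the circRNA at chromosome 10, 11856924 to 11863664, had 44 and 6 reads (5.11-fold lower, 2.17 to 14.7). Its other 5 circRNAs had 34 and 15 reads together, a ratio of 0.633 (0.320 to 1.19). The Cluap1 sum, 78 and 21 reads, was 2.59-fold lower (1.58 to 4.42), and it met the rule also from circRNAs in both libraries alone (70 and 21 reads, 2.32-fold lower, 1.41 to 3.99). No other member host that was lower did so.

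For Ift74, circRNAs with 17 reads (chromosome 5, 113630649 to 113655267) and 10 reads (113666904 to 113682362) in sham were listed at 0 in BCP, and the second call was lost when a 0 was taken as 1 read. A further 2 with 8 and 5 sham reads were also at 0 in BCP, and the fifth had 5 reads in each library (113637649 to 113647215). The Ift74 sum was 45 and 5 reads, 6.28-fold lower (2.50 to 20.3). All of its BCP reads thus came from 1 back-splice, which shares its start and its end with circRNAs that BCP did not list.

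The other genes of this group met neither side of the rule. Ift20, whose product also sits at the Golgi, had 38 and 17 reads in a single circRNA (chromosome 10, 65807775 to 65808260; ratio 0.641, 0.339 to 1.16). Ift80 had 33 and 21 reads, Ift88 38 and 24, Dync2h1 9 and 3 and Ift43 7 and 3. Ift172 went the other way with 20 and 25 reads (ratio 1.79, 0.956 to 3.40), and Ift81 had 3 reads in each library.

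Ahi1 encodes jouberin, a protein of the transition zone that gates the base of the cilium. It hosted 6 circRNAs with 14 and 26 reads. The sum in BCP was 2.66 times that in sham (1.34 to 5.52). From the 3 circRNAs with reads in both libraries (9 and 19) it was 3.03 times (1.30 to 7.60). The circRNA that met the rule had 3 and 11 reads (chromosome 1, 16530001 to 16601769; 5.26-fold, 1.39 to 29.3), and without it the rest had 11 and 15 reads (ratio 1.96, 0.839 to 4.71). Another that shares its start (16530001 to 16596949) had 2 and 5 reads. The axonemal dynein gene Dnah9, which belongs to motile cilia, had 2 circRNAs with 2 and 3 reads in BCP and 0 in sham.

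Centrosomal genes hosted 28 circRNAs from 13 genes, with 275 and 147 reads (ratio 0.766, 0.623 to 0.940). Of 7 tested, 0 were higher and 1 was lower, beside 7.82% and 7.34% over the table. Cep97, whose product caps the mother centriole and holds back cilium formation, hosted the lower one, with 63 reads in sham and 0 in BCP (chromosome 11, 47165426 to 47169764). Its other 2 circRNAs had 24 and 19 reads, a ratio of 1.14 (0.588 to 2.16), and 1 of these, with 20 and 16 reads, ends at the same position (47157561 to 47169764). The Cep97 sum of 87 and 19 reads was 3.19-fold lower (1.93 to 5.56) through that circRNA alone. Over centrosomal circRNAs with reads in both libraries the direction turned (170 and 128 reads, ratio 1.08, 0.851 to 1.37). Cep85l had 21 reads in each library, Cep89 11 and 5 and Cep63 10 and 5, and none of these met the rule.

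**Figure D3:**
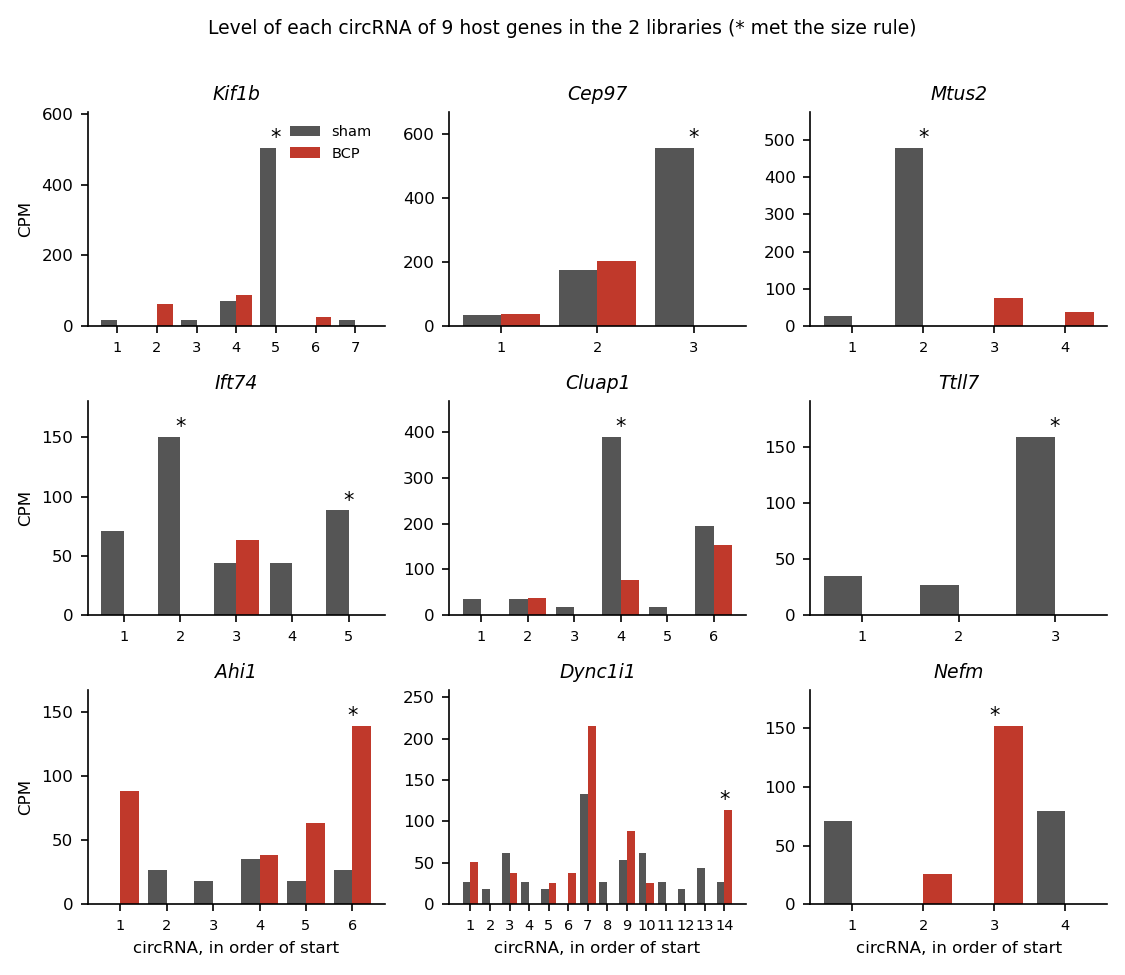
CPM of each circRNA of 9 host genes in sham (grey) and BCP (red), 1 library each, numbered in order of start, with an asterisk where the circRNA met the size rule. In Kif1b, Cep97 and Mtus2 a single tall sham bar, from 57, 63 and 54 reads, has no BCP bar beside it, and the other bars of these genes are lower.

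Promoters of cilium genes often carry an X-box, the binding motif of RFX transcription factors, and it was looked for here as a sequence feature that the choice by name did not use. RefSeq promoters of 300 bases (build GRCr8), from 250 before to 50 after the gene's start, were at hand for 51 of 63 hosts, with 64 promoters. The motif was searched on both strands as GTTNCC, any 3 bases, then GNAAC. It occurred in 2 of the 64 (3.13%) and in 252 of all 33469 promoters (0.753%). This was 1 of 3 spellings searched, and it was chosen for printing after the matches of all 3 had been seen. With 2 or 3 bases in the gap, Dnah9 matched as well (454 promoters in all), and a core of 10 fixed letters in 3 versions matched Cep112 and Cluap1 (322 in all). Below, 30 bases around each match are given 5′ to 3′ on the gene's strand, which is + for both, with the match in capitals. It starts 83 bases before the start of Ahi1 (chr1:17581940-17581969) and 164 before that of Cep112 (chr10:93865527-93865556).
Ahi1: gcgactcaGTTACCTAGGTAACagcggcag
Cep112: gctagacaGTTACCATAGCAACggagctgc
Of the hosts with a match, Ahi1 had a summed level that was higher in BCP, with 1 of its 6 circRNAs meeting the rule, and Cep112 had 119 and 81 reads over 8 circRNAs (ratio 0.976, 0.727 to 1.31). A match says only that these letters stand in this window, and which hosts match depends on the spelling.

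Plus-end binding genes, which regulate growing microtubule ends, hosted 31 circRNAs from 6 genes with 381 and 212 reads (ratio 0.798, 0.671 to 0.946). None of the 7 tested met the rule in either direction, and without the leading Clip4 circRNA the ratio was 0.983 (0.752 to 1.28). Clip4 thus carried the lower sum. Clip2 had 69 and 42 reads over 6 circRNAs, among them one with 27 and 28 reads (chromosome 12, 25207283 to 25210634; ratio 1.49, 0.845 to 2.62) and one with 12 and 2 (25210531 to 25215908; ratio 0.239, 0.0260 to 1.07). Clasp2 had 11 circRNAs with 45 and 27 reads, a ratio of 0.860 (0.513 to 1.42). The Clip1 sum was higher, with 8 and 15 reads (2.69-fold, 1.07 to 7.32), but did not meet the rule under median-of-ratios or TMM scaling. From its circRNAs with reads in both libraries, Clip1 (4 and 8 reads) did not meet the rule.

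Microtubule-associated genes hosted 12 circRNAs with 163 and 102 reads (ratio 0.897, 0.694 to 1.16). One was lower, that of Mtus2, whose product binds microtubule ends, with 54 reads in sham and 0 in BCP (chromosome 12, 8189807 to 8220963). Another with the same start had 3 and 0 reads, while 2 from elsewhere in the gene had 6 and 3 reads in BCP and 0 in sham. The Mtus2 sum was 57 and 9 reads (4.42-fold lower, 2.17 to 10.1). Without the 54-read circRNA the rest had 3 and 9, 4.30-fold higher (1.07 to 24.7). That rest was chosen by its values, so its direction carries little weight. No Mtus2 circRNA was listed in both libraries. Map4 had 4 and 9 reads, Map7 0 and 4, and Map1b 0 and 3.

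Ttll7 and Ttll11 encode tubulin ligases that add side chains of glutamate to tubulin. Ttll7 was listed in sham alone, with 25 reads over 3 circRNAs, of which the one with 18 reads met the rule as lower (chromosome 2, 252807923 to 252811538). Ttll11 had 3 reads in BCP alone. Of the severing genes, Katna1, the catalytic katanin subunit, had 13 and 4 reads (ratio 0.441, 0.105 to 1.43), and Katnbl1 had 3 in BCP alone.

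Neurofilament genes gave 7 short circRNAs of 169 to 1783 bp, with 20 reads in each library and no circRNA listed in both. One of Nefm, the medium subunit, was higher, with 0 and 12 reads (chromosome 15, 44856233 to 44856454). Elsewhere in Nefm, circRNAs with 8 and 9 reads in sham were listed at 0 in BCP. The rest of Nefm without the higher circRNA had 17 and 2 reads (5.93-fold lower, 1.41 to 52.9). That set was chosen by its values, so its direction carries little weight. With the higher circRNA the Nefm sums were 17 and 14 reads (ratio 1.18, 0.539 to 2.55). Nefl had 6 reads in BCP alone and Nefh 3 in sham alone. Cept1, the name match, had 57 and 19 reads in a circRNA that was lower (chromosome 2, 209143856 to 209152642; 2.09-fold, 1.23 to 3.72). Without Cept1, 3 members were higher and 8 lower, and the summed ratio was 0.816 (0.752 to 0.885).

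**Figure D4:**
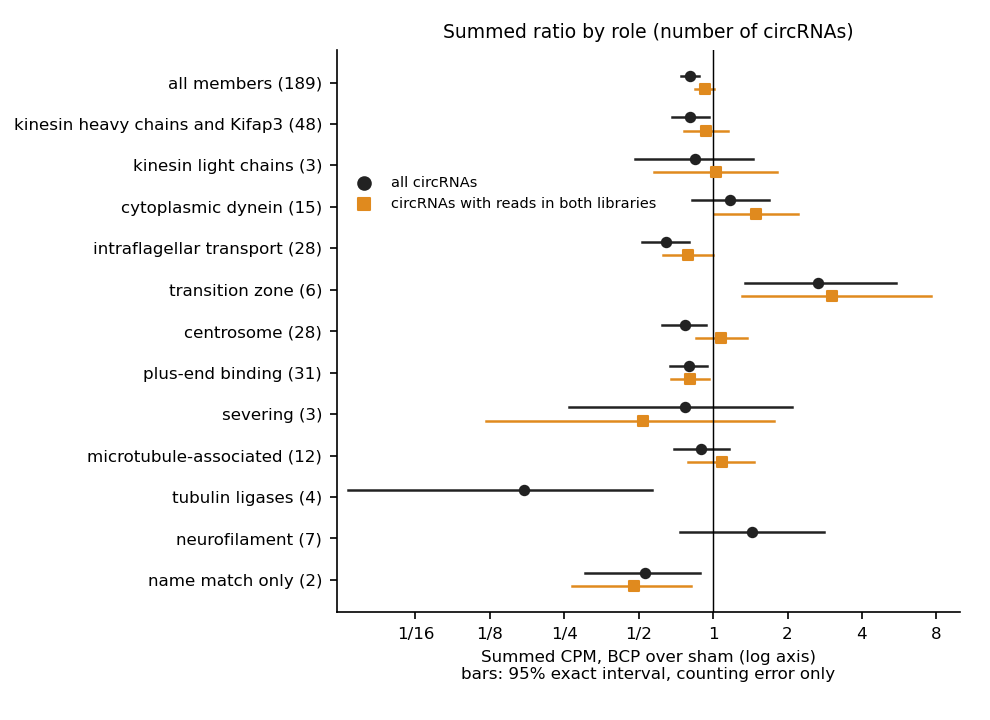
Summed CPM of each role in BCP over sham on a log axis, with 95% exact intervals that cover counting error only, for all circRNAs (black) and for those with reads in both libraries (orange), and the number of circRNAs in brackets. Intraflagellar transport lies at 0.645 and the transition zone gene Ahi1 at 2.66; the centrosomal ratio moves from 0.766 to 1.08 when circRNAs listed in a single library are left out.

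In genomic layout the members' median span was 9484 bp, beside 9708 bp over the table, 8.47% spanned at most 500 bp, beside 6.12%, and 60.3% shared a start or end with another circRNA, beside 59.9%. A host had 3.00 circRNAs on average, beside 2.59 over all hosts, and 34.9% had a single one, beside 47.6%. Values over all hosts count only circRNAs that carry a single host name. Among member hosts with at least 2 circRNAs, 16 of 41 (39.0%) had some listed in sham alone and others in BCP alone, beside 38.3% over the table. The difference was not tested, and member hosts hold more circRNAs each.

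A list of 190 other microtubule, centrosome and cilium genes, from tubulins and dynactin to the ciliary complexes, gave a point of reference. It had circRNAs for 63 genes, with 1387 and 980 reads (ratio 1.01, 0.933 to 1.10). Of 50 tested circRNAs 3 were higher and 2 lower, beside 7.82% and 7.34% over the table. Their median log2 ratio was 0.03. Cntrl, a centriolar gene, was higher with 4 and 25 reads (8.96-fold, 3.09 to 35.4), and so was Cfap61, of motile cilia, with 2 and 10 (7.17-fold, 1.53 to 67.3). Wdpcp, a gene of cilium assembly, had circRNAs with 17 and 0 and with 0 and 11 reads that end at the same position, 1 lower and 1 higher. Sptan1, a spectrin gene, had a lower circRNA (57 and 19 reads, 2.09-fold, 1.23 to 3.72). Of 33 host sums tested in this list, 4 were higher (Cntrl, Cspp1, Ndel1, Spag9) and 1 lower, beside 8.82% and 8.49% of all host sums. The lower one was Ttc26, which encodes a further IFT-B subunit, with 18 reads over 5 circRNAs in sham and 0 in BCP.

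Marker genes of cell types also differed between the libraries, and their part in the values above was not tested. The lists were chosen with earlier results of these data known. How many of their genes had circRNAs, which ones, and the ratios of their summed reads therefore carry little weight. All 12 neuronal marker genes had circRNAs, with 1656 and 919 reads, a ratio of 0.796 (0.733 to 0.863). Most of these reads came from Rims1 and Rims2, so the sum does not speak for each neuronal gene. Of 42 tested neuronal circRNAs 3 were higher and 5 lower, beside 7.82% and 7.34% over the table. Of 10 neuronal host sums tested, 1 was higher and 1 lower, beside 8.82% and 8.49%. Of 20 marker genes of ependymal cells, the ciliated lining of the central canal, 4 had circRNAs, with 14 reads in each library, and the defining gene Foxj1 was at 0. Microglia and macrophage markers (3 of 8 genes) had 13 sham and 55 BCP reads, a ratio of 6.07 (3.27 to 12.1). They came from Ikzf1 (11 and 43), Dock8 (0 and 12) and Ptprc (2 and 0), with Csf1r, Cx3cr1, Itgam, P2ry12 and Aif1 at 0. Astrocyte markers (2 of 8) had 19 and 42 reads, a ratio of 3.17 (1.803 to 5.77), with Gfap and Aqp4 at 0. A single Slc7a11 circRNA gave 32 of these BCP reads and 0 in sham, while Slc1a2 had 5 and 3. Oligodendrocyte markers (7 of 10) had 109 and 111 reads, a ratio of 1.46 (1.11 to 1.92). Ganglion and Schwann cell markers (3 of 8) had 5 and 19 reads, and vessel markers (3 of 6) 39 and 34. None of 6 Hox genes of spinal cord position and none of 5 muscle genes had a circRNA. A gene without a circRNA may still be expressed.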

How the data were processed

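CircRNA of 1 BCP and 1 sham library, spinal cord by the tissue label although the source label names the injected cell line, was measured by sequencing after removal of ribosomal RNA and RNase R digestion, per the labels' protocols. The authors deposited 1 table with back-splice read counts and CPM values. The deposited CPM columns, headed TPM in the file, differ by less than 0.001 from counts divided by column totals (0 is written as 0.001) and served only as a check. Per the submitters' processing notes, CASAVA 1.8, BWA and build rn6 were used. No source used here names the circRNA caller, the annotation or a read minimum. The RNase R step and any such minimum decide which molecules are counted and which thin circRNAs are listed at 0.

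Names that spread over more than 3 Mb of a chromosome (65) were dropped, which removed no member. All 63 member names matched the RefSeq gene table (GRCr8). Counts were scaled to column totals. Ratios have conditional exact binomial intervals (SciPy 1.17.1), and the 2-fold part of the size rule used counts with 0.5 reads added. That form was taken after both had been run: without it 274 circRNAs of the table were higher and 260 lower, and the members' counts were the same. The rule was run over the whole table. It was also tried on simulated counts that held counting error only. That trial cannot show how the rule fares with variation between animals or libraries. Named circRNAs are those that met the rule, the 10 with most reads, the 2 with most reads per role, host sums that met it and the 5 hosts with most circRNAs; others were named after their values were seen. Members, roles and lists were chosen with earlier results of these data known. Alternatives were scaling by edgeR 4.0.16 (TMM) or DESeq2 1.42.0 (median of ratios), other read minimums, folds, intervals and pseudocounts, and subsets of circRNAs. Taking a 0 as 1 read, adding no reads, and leaving out lower calls were added after the data were seen. Depth was 113033 reads in sham and 78836 in BCP, and the number of reads limits the precision of every ratio. 1 tested host gene enters the counts and sums but is not reported by itself here.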

Additional observations from a re-analysis of the deposited data

How the results depend on the processing

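No paired analysis was possible because each group has 1 library, and for the same reason none could be left out. All log2 ratios shifted by -0.10 under median-of-ratios and by -0.12 under TMM scaling. Members that met the size rule were then 2 higher and 11 lower of 52 with either. Of 3502 circRNAs in the table, 231 were higher and 304 lower under median-of-ratios, and 228 and 308 under TMM scaling. The summed ratio of all members was 0.750 and 0.743. Relative to 0, the leading circRNAs of Cep112 (-0.031 and -0.043), Map2 (-0.034 and -0.046) and Klc1 (-0.053 and -0.065) changed sign on the log2 scale, none of them called. With at least 5 reads, or no minimum, 12 members were higher and 13 lower (690 and 558 in the table), and 6 member host sums were higher. The numbers tested were 102 members and 6246 circRNAs of the table with at least 5 reads, and 189 and 11599 with no minimum. With at least 20 reads, 0 members were higher and 5 lower of 24 (139 and 112 of 1800 in the table). A 99% interval left 1 higher and 8 lower members of 52, beside 168 and 177 of 3502 circRNAs in the table. A 3-fold ratio left 1 higher and 6 lower member host sums of 42. The circRNAs of Ahi1, Dync1i1 and Ift74 (10 reads) and the sums of Clip1, Kif13a, Kif6 and Kifap3 did not meet the rule with the 99% interval. Nor did the Cept1 circRNA and the sums of Ahi1, Clip1, Cluap1, Kif13a and Kifap3 with the 3-fold ratio. From circRNAs with reads in both libraries, 2 members were lower, 1 host sum was higher and 2 were lower (Cept1 among them), and the summed ratio was 0.925. Without the 9 lower circRNAs, a set chosen by its values, it was 0.976. The centrosomal ratio turned to 1.08 in both libraries, and without its leading circRNA it was 0.602. Likewise without the leading circRNA, the plus-end binding ratio was 0.983. The neurofilament ratio then moved from 1.43 to 0.574 (20 and 8 reads, 0.218 to 1.36). For severing genes it moved from 0.772 to 2.15 (2 and 3 reads, 0.246 to 25.7). For tubulin ligases it moved from 0.172 to 0.614 (7 and 3 reads, 0.103 to 2.69). Listing in a single library fell from 61.9% of members to 15.4% of those with at least 10 reads. Of these 52 members, 7 were listed in sham alone and 1 in BCP alone, beside 174 and 84 of 3502 over the table. Fewer circRNAs enter each of these subsets. With a 0 taken as 1 read, 3 members were higher and 8 lower of 52, beside 274 and 223 of 3502 in the table. No ratio could be had for circRNAs in both libraries of Dnah9, neurofilaments or tubulin ligases.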

Other observations

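Some members differed from each other by a handful of bases at 1 end, which was not part of any comparison above. Kif21a, a kinesin that slows microtubule growth, had circRNAs with the same start on chromosome 7 (132094355) and ends 3 bp apart: the one ending at 132095066 had 42 reads in sham and 22 in BCP, and the one ending at 132095063 had 6 and 2. Klc1 had a pair on chromosome 6 that starts at 136348078, with ends 27 bp apart: 32 and 23 reads for the end at 136358127, and 5 and 0 reads for the end at 136358154. In each pair the same end had more reads in both libraries. Such pairs, with ends at most 30 bp apart, numbered 105 over all circRNAs.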
